A study of Mus musculus with 24 samples.

Results

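H3K4me3 peaks of mouse retina that were present at both postnatal day 2 (P2) and postnatal day 17 (P17) and met no peak of SOX8 or SOX9 at either age are described here. The members were chosen by measured values: each is a peak of the P2 H3K4me3 list that shares at least 1 bp with a P17 H3K4me3 peak and no base with any of 4 SOX peak lists. The rule took 3786 of the 9134 P2 H3K4me3 peaks (41.4%). Of the 8249 stable peaks, those also marked at P17, 45.9% were members, and the other 4463 overlapped at least 1 SOX peak. Of these SOX-bound peaks, 2295 met SOX at P2 only, 301 at P17 only and 1867 at both ages.

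The libraries came from wild-type retina by CUT&RUN, in which an antibody directs a nuclease to a chromatin protein and the DNA cut around it is sequenced, with 600000 nuclei per reaction. At each age the study made 2 libraries each for H3K4me3, H3K27ac, SOX9 and a nonspecific IgG, and 4 for SOX8, from 2 antibodies. All groups carry the same wild-type genotype, and whole retina mixes neurons, glia and, at P2, dividing progenitors. The animals' strain and sex are not given in the sources used here.

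H3K4me3 is deposited by methyltransferase complexes of the Set1 and MLL families at transcription start sites, above all at those rich in CpG dinucleotides. H3K27ac, placed by CBP and p300, marks active promoters and enhancers. Promoters of genes that every cell needs, such as those of ribosomes, mitochondria and the proteasome, carry both marks in most tissues. SOX8 and SOX9 are HMG-box transcription factors of the SoxE group, which in the retina are known for their roles in progenitors and in Müller glia, the main glial cells.

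There is 1 peak list per target and age, 8 in all, with no height, p-value or replicate behind any peak, so depth is unknown and no test over samples could be made. Differences between shares are given with 95% Newcombe intervals and single shares with 95% Wilson intervals. These intervals cover counting error over peaks or genes only, and say nothing of the spread between animals or libraries. A peak missing from a SOX list means that none was listed, not that the factor was absent. The P2 H3K27ac list held 287845 peaks and covered 525 Mb, against 29909 peaks and 173 Mb at P17, so an overlap of 1 bp with it is easily met.

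Most members lay near a gene start. For 4357 protein-coding genes with no listed start site, both gene ends stood in for the start. Of the 3945 genes without SOX, 3200 were placed by a start site, as were 4104 of the 5003 with SOX. How many members rest on gene ends alone was not counted. A protein-coding gene start lay within 1 kb of 3588 members (94.8%), against 94.0% of SOX-bound stable peaks, a difference of 0.730 percentage points (95% interval -0.271 to 1.72), or 2.11 points with only the wider 50% of SOX peaks. Of the 198 members with none, 67 had an end of a long noncoding RNA gene within 1 kb, 92 lay inside a protein-coding gene, and 39 had neither. Of 147 marker genes of retinal cell types and of microglia and endothelium, 41 had a stable peak, 34 of them with SOX and 7 without. Among all protein-coding genes at a stable peak, 44.1% were without SOX, but marker peaks were often wide, which is taken up below. Crx, Nrl, Otx2, Rax and Six3, regulators of photoreceptor, bipolar or progenitor cells, were among the 34, and Pdc, Fgfr1, Tfap2b and Gpr37 among the 7.

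The promoters of 6 members are shown first, to let the reader see what a marked promoter without SOX looks like. Each is the widest member with a single gene start in 1 of the 6 gene lists with the highest share without SOX among lists of at least 20 genes at stable peaks. The letters are the 250 bases before the RefSeq start site on GRCm38.p6, 5′ to 3′ on the gene's strand. Capitals mark every match, on either strand, to 10 motifs. These were ACAAAG for SOX and its variant ACAATG, GCGCNTGCG for NRF1, CCGGAAG for ETS factors, AAGATGGCG for YY1, the CCAAT box as written, the cyclic AMP response element TGACGTCA, the E-box CACGTG, the SP motif GGGCGG and the TATA box TATAAA.
Pex6, chr17:46711226-46711475, plus strand: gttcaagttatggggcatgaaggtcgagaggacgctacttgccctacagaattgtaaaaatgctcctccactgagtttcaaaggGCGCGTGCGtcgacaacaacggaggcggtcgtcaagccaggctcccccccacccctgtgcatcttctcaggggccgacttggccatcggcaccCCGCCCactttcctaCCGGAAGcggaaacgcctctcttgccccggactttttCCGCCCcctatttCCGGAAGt
Mars2, chr1:55236927-55237176, plus strand: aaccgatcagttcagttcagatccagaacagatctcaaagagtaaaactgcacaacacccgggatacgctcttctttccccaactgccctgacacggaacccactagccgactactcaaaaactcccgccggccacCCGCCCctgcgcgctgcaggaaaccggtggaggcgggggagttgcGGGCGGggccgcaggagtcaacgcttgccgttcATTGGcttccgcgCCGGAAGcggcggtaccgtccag
Mrps30, chr13:118387253-118387502, minus strand: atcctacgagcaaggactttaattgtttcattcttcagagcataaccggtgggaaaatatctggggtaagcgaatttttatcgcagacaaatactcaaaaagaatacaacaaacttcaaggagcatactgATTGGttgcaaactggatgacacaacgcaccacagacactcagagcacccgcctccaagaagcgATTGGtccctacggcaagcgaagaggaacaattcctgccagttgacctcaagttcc
Psma6, chr12:55398575-55398824, plus strand: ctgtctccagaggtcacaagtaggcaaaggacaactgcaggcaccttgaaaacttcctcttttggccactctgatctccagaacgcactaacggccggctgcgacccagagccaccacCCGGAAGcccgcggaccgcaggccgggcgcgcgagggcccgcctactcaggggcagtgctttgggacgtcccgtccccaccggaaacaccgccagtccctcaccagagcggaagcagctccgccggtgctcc
Atp5b, chr10:128083057-128083306, plus strand: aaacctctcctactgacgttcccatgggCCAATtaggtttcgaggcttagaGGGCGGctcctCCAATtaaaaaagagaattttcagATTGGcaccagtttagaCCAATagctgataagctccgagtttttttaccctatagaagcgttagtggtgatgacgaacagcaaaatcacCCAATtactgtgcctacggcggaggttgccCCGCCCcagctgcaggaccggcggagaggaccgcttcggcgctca
Exosc6, chr8:111056089-111056338, plus strand: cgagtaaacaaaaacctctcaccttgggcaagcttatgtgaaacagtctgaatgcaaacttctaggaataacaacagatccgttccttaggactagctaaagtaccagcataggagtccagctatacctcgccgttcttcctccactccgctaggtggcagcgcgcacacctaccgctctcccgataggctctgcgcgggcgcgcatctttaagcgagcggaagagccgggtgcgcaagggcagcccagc
Pex6 encodes an ATPase of peroxisome assembly, Mars2 a mitochondrial methionyl-tRNA synthetase, Mrps30 a protein of the mitochondrial ribosome, Psma6 a proteasome subunit, Atp5b the catalytic subunit of ATP synthase and Exosc6 a subunit of the RNA exosome. The ETS letters occurred in these bases of Pex6, Mars2 and Psma6. Mars2, Mrps30 and Atp5b held CCAAT on either strand, 1, 2 and 5 times, and Exosc6 held none of the motifs. None of the 6 held either SOX motif. Both motifs were uncommon in either set, in the windows around the start that are compared below. There ACAAAG was in 12.4% of promoters without SOX and 11.5% with SOX, and ACAATG in 5.81% and 7.24%. The lack of both motifs in these 6 promoters therefore does not set members apart.

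For contrast, 2 SOX-bound stable promoters were taken in the same way from the 2 such lists with the lowest share without SOX.
H1f2, chr13:23738557-23738806, plus strand: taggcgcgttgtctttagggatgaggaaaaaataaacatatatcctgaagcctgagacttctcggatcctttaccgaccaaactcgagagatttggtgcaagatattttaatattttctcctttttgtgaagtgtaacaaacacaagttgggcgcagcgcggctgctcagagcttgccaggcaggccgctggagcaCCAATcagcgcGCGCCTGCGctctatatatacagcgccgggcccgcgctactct
Foxo3, chr10:42276696-42276945, minus strand: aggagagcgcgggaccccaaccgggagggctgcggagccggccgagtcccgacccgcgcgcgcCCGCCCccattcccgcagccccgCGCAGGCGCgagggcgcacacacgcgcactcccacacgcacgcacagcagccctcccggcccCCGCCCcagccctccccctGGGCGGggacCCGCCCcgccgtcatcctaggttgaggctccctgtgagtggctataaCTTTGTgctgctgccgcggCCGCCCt
H1f2 encodes a linker histone and Foxo3 a forkhead transcription factor. The Foxo3 window held 5 matches to the SP letters and 1 to ACAAAG, and the H1f2 window held neither. These matches are letters in a window and do not show binding.

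The rule's boundary was an overlap of 1 bp, and few members lay close to it. The nearest SOX peak was at a median of 71461 bp (quartiles 26050 and 204055 bp). Only 33 members (0.872%) had one within 1000 bp and 200 (5.28%) within 5000 bp. Just inside the rule lay the peaks at Wdr74, Sec14l2, the pair Timm29 and Yipf2, the pair Mepce and Ppp1r35, and Cerk, which were 104, 126, 132, 184 and 206 bp from a P17 SOX peak. Just outside it lay peaks at Iqce, the pair Rpl18 and Sphk2, Slco4a1, Taok3 and Slc32a1, whose largest overlap with a SOX peak was 47, 289, 387, 409 and 456 bp.

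Members were narrow. Their P2 H3K4me3 width had a median of 3125 bp (quartiles 2647 and 3687 bp, range 1096 to 11293 bp), against 4053 bp (quartiles 3300 and 4962 bp, up to 34586 bp) in SOX-bound stable peaks. At P17 the H3K4me3 peaks over them had medians of 3306 and 4238 bp. Peaks with SOX at both ages were the widest of the SOX classes, at a median of 4455 bp at P2, while those with SOX at P2 only or P17 only had 3777 and 3850 bp. The 588 P2 H3K4me3 peaks with neither SOX nor P17 H3K4me3 were about as narrow as members, at a median of 3204 bp (quartiles 2710 and 3880 bp). A wide peak meets a SOX peak more easily by its size alone, so these widths are tied to the rule and are a description.

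**Figure D1:**
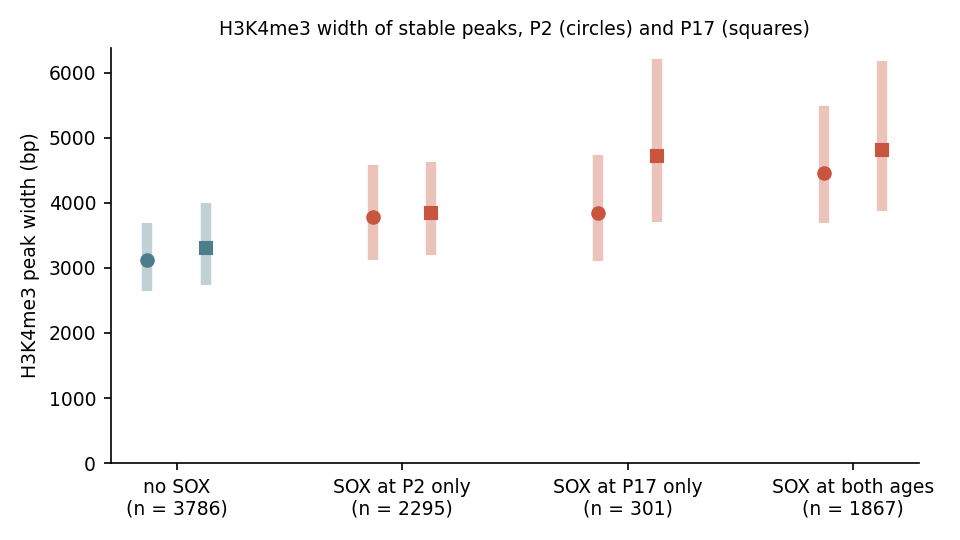
Width of stable H3K4me3 peaks in bp (vertical axis) for members (no SOX) and for peaks with SOX at P2 only, at P17 only or at both ages. Symbols are medians at P2 (circles) and P17 (squares) and pale bars span the quartiles; members have the lowest medians, 3125 and 3306 bp.

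Widths at the 2 ages were close in both sets. The ratio of P17 to P2 width had a median of 1.06 in members (quartiles 0.896 and 1.24) and 1.04 in SOX-bound peaks (0.893 and 1.23). The P17 peak was wider in 59.2% of members and 57.2% of SOX-bound peaks. Among members the gene Pdc, which encodes phosducin, a protein that binds transducin subunits in photoreceptors, had 6525 bp at P2 and 14178 bp at P17. Npas3, a neuronal bHLH-PAS factor, went the other way, with 8691 bp at P2 and 2857 bp at P17.

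The share of stable peaks without SOX was lower in each successive width class. In 5 classes of equal size it was 73.5% among peaks of 1096 to 2779 bp, then 60.1%, 49.0% and 31.4%, and 15.6% among peaks of 4698 to 34586 bp. In the widest class 257 of 1652 peaks were members. The widest members with a gene start lay at Tfap2b (10750 bp), a transcription factor of amacrine and horizontal cells, at Pcdh7 (10532 bp), Pcdh19 (8805 bp) and Pcdh17 (8157 bp), which encode protocadherin adhesion proteins, and at Bcl11a (9641 bp), a zinc finger factor of neurons. Others of the widest 10 lay at Npas3, at Gpr37 (8213 bp), Myt1 (7850 bp), at Arpc5l with Rpl35 (8246 bp) and at BC003965 with Unkl (7842 bp). At Tfap2b the P17 peak covered 10820 bp and the nearest SOX peak was 1082607 bp away. The nearest SOX peaks to Pcdh7, Pcdh17 and Pcdh19 were 3713789, 2965106 and 3048055 bp away. The widest SOX-bound stable peaks lay at Pax6 (33680 bp) and Six3 (24016 bp), homeobox regulators of eye development.

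H3K27ac, which the rule did not use, was listed at fewer members than SOX-bound peaks at P17. A P17 H3K27ac peak overlapped 3260 of 3786 members, or 86.1% (95% interval 85.0 to 87.2%), and 4242 of 4463 SOX-bound stable peaks, or 95% (94.4 to 95.6%). The background was 90.9% of all stable peaks, and 84.9% of all P2 H3K4me3 peaks, which include those lost by P17. The difference was -8.94 percentage points (95% interval -10.2 to -7.68). Against peaks with SOX at P2 only the difference was -6.79 points (-8.29 to -5.24), against SOX at P17 only -7.25 points (-9.82 to -3.69), and against SOX at both ages -11.9 points (-13.1 to -10.6). With only the wider 50% of each SOX list counted as SOX, which gave 5724 members, the difference was -5.17 points.

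At P2 nearly every peak met H3K27ac. The shares were 97.5% of members and 99.4% of SOX-bound stable peaks, with 98.2% of all P2 H3K4me3 peaks as background, a difference of -1.98 points (95% interval -2.56 to -1.45), or -1.09 points with the wider SOX peaks alone. The P2 difference was -2.10 points (-2.69 to -1.52) against SOX at P2 only and -2.27 points (-2.84 to -1.69) against SOX at both ages. Against SOX at P17 only it was 0.787 points, with an interval that included 0 (-0.819 to 3.51). In the narrowest width class it was -0.00491 points (-1.38 to 1.92), and in the wider classes it lay between -2.72 and -1.87 points. The P2 value changed with the rule for H3K27ac. With only the widest P2 peaks of that mark, in the number of the P17 list, the shares were 12.3% and 36.6%, a difference of -24.4 points (-26.1 to -22.6). With at least 50% of the H3K4me3 peak covered, they were 73.2% and 84.7% at P2, and 81.3% and 90.7% at P17.

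H3K27ac also covered less of each member. The median share of a peak's bases inside H3K27ac was 63.6% at P2 and 80.0% at P17 in members, and 71.1% and 91.4% in SOX-bound peaks. At P17 24.2% of members and 36.9% of SOX-bound peaks lay wholly inside H3K27ac. The gap in P17 H3K27ac was present in every width class. In the narrowest class 85.4% of members and 96.3% of SOX-bound peaks had the mark (difference -11.0 points, 95% interval -13.5 to -8.06), and in the widest 80.9% and 94.8% (-13.9 points, -19.3 to -9.38). When SOX-bound peaks were weighted to the members' widths, the P17 shares were 86.1% and 95.3%.

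**Figure D2:**
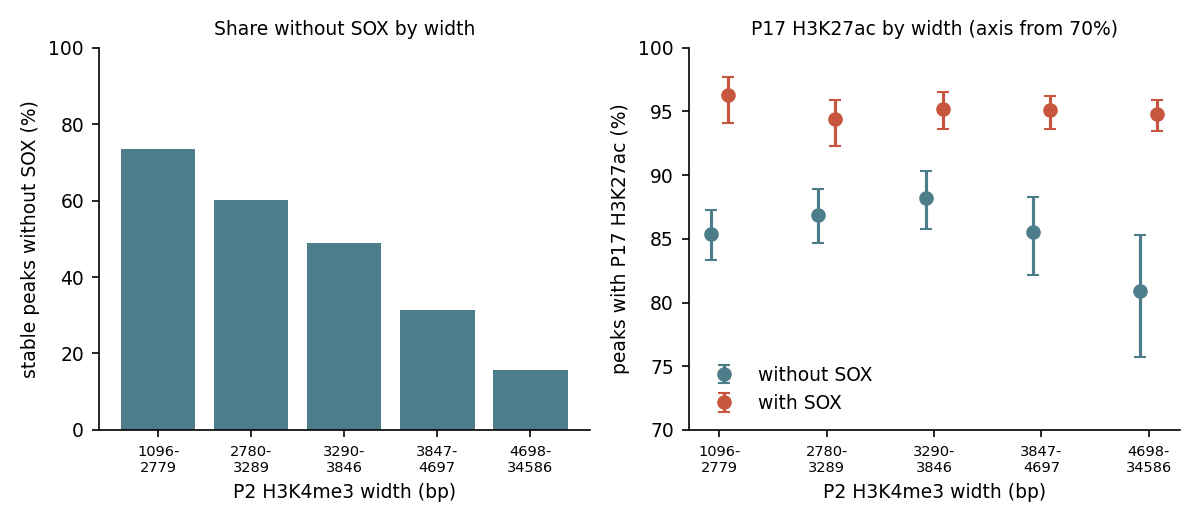
Left, share of stable H3K4me3 peaks without SOX (%) in 5 width classes of P2 H3K4me3 (bp); right, share with a P17 H3K27ac peak (%, axis from 70%) for members and SOX-bound peaks in the same classes, with 95% Wilson intervals. The share without SOX goes from 73.5% to 15.6% with width, while members have less P17 H3K27ac in every class.

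Most members had H3K27ac at both ages (3207, or 84.7%), 483 at P2 only, 53 at P17 only and 43 (1.14%) at neither. In the 526 members with no P17 H3K27ac, the ratio of P17 to P2 H3K4me3 width had a median of 0.931 (quartiles 0.778 and 1.11). In the 3260 members with P17 H3K27ac it was 1.08 (0.921 and 1.26). The P17 peak was the wider in 212 of the 526 (40.3%) and in 62.3% of the 3260. The widest members without P17 H3K27ac were Bcl11a, Pcdh19, Npas3, Pcdh17 and Bcorl1, a corepressor gene. Bcl11a had 52.8% of its P2 peak inside P2 H3K27ac and none inside P17 H3K27ac. At Pcdh17 the P2 share was 29.3%, and its H3K4me3 peak went from 8157 to 9128 bp while no P17 H3K27ac was listed. Myc, the growth-promoting transcription factor, and Brinp2 had H3K4me3 peaks of 6893 and 5245 bp at P2 and met H3K27ac at neither age. Abt1 met none at P2, while 17.5% of its P2 H3K4me3 peak lay inside P17 H3K27ac.

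Gene families differed in how often their marked promoters lacked SOX. Of 8948 protein-coding genes at a stable peak, 3945 (44.1%) had no SOX peak there, and this share is the background for each list. The lists were defined by gene symbols, so a few entries, such as Psmc3ip and Pex5l, share a name stem rather than a function. Because narrow peaks lack SOX more often, each list's share of peaks is also set beside the share that the widths of its own peaks would give.

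Several lists of mitochondria and basic metabolism had shares without SOX above the background. Peroxisome and GPI anchor genes had 23 of 31 without SOX (74.2%), aminoacyl-tRNA synthetases 22 of 31 (71.0%), and mitochondrial ribosomal proteins 51 of 73 (69.9%, 95% interval 58.6 to 79.2%). Of proteasome genes 28 of 43 (65.1%) lacked SOX, of oxidative phosphorylation genes 54 of 85 (63.5%, 52.9 to 73.0%), and of nuclear pore and RNA exosome genes 19 of 30 (63.3%, 45.5 to 78.1%). Mitochondrial import genes had 14 of 23 (60.9%), with an interval of 40.8 to 77.8% that held the background of 44.1%. For mitochondrial ribosomal proteins, 69.4% of peaks (95% interval 58.0 to 78.9%) were without SOX against 55.6% from their widths, and for oxidative phosphorylation 63.5% (52.9 to 73.0%) against 50.4%. In the other 5 lists the interval over peaks held the value from widths, so their shares did not differ from it beyond counting error. With only the wider 50% of SOX peaks, the excess over all genes went from 30.1 to 15.1 points for peroxisome and GPI anchor genes, from 25.8 to 13.4 points for mitochondrial ribosomal proteins and from 21.0 to 12.6 points for proteasome genes. P17 H3K27ac, present at 86.1% of all members, was at 52 of 54 member peaks of oxidative phosphorylation genes (96.3%) and 45 of 50 of mitochondrial ribosomal proteins (90%). Lower shares included those of ubiquitin enzymes (22 of 30, 73.3%), DNA replication and mitosis (19 of 24, 79.2%) and nuclear pore and RNA exosome (16 of 20, 80.0%). RNA polymerase, Mediator and general factors had 38 of 47 (80.9%). Small lists such as kinesins (4 of 6) and potassium channels (4 of 8) were lower still. No intervals were computed for these shares, so a difference from 86.1% may be counting error.

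Single members show the range. Atp5b had H3K4me3 of 4665 bp at P2 and 4862 bp at P17, with 43.0% and 100% of the P2 peak inside H3K27ac at the 2 ages, and its nearest SOX peak was 5246 bp away. Ndufb11, a subunit of respiratory complex I on the X chromosome, had 4962 and 5415 bp and coverage of 44.3% and 100%. Sdhd, a subunit of succinate dehydrogenase, shared a peak of 4396 bp with Timm8b, a mitochondrial import gene. Mrpl46 and Mrps11, from the mitochondrial ribosome's large and small subunits, shared a peak of 4432 bp on chromosome 7. Psma5 and Psmc1, proteasome subunits, had peaks of 3900 and 3957 bp. Psma5 had no P17 H3K27ac and Psmc1 had 18.9% coverage. Pex6 had the reverse order of acetylation, with none listed at P2 and 73.8% of the peak covered at P17.

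Not all genes of cell maintenance followed. Cytosolic ribosomal proteins, the partners of the mitochondrial list, had 31 of 79 without SOX (39.2%, 95% interval 29.2 to 50.3%), near the background. Their members included Rpl35, Rpl28, Rpl39 and Rps28, with P2 widths of 8246, 5581, 4668 and 4345 bp. Translation initiation factors had 20 of 47 (42.6%), ubiquitin enzymes 30 of 76 (39.5%), vesicle traffic 49 of 98 (50%) and DNA repair 16 of 35 (45.7%). Splicing factors had 34 of 62 (54.8%), RNA polymerase, Mediator and general factors 47 of 89 (52.8%), RNA methyltransferases 19 of 34 (55.9%) and solute carriers 66 of 142 (46.5%). DNA replication and mitosis genes had 24 of 49 (49.0%), and centrosome and cilium genes 26 of 46 (56.5%), where the widths gave 56.2%. The intervals of all these lists held the background value of 44.1%.

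Zinc finger genes named Zfp, Zkscan or Zscan, many of which encode KRAB repressors of transposable elements, were the list with the most members. Of 270 such genes at a stable peak, 165 (61.1%, 95% interval 55.2 to 66.7%) had no SOX, and of their peaks 60.9% (54.9 to 66.6%), against 50.7% from the widths of these peaks. With only the wider 50% of SOX peaks the excess over all genes was 8.62 points. Their members were 2975 bp wide at the median, and 152 of 162 (93.8%) had P17 H3K27ac, beside 86.1% of all members and 94.2% of the list's own SOX-bound peaks. The widest were Zfp710 (7027 bp), Zfp512b (6079 bp), Zfp362 (5517 bp) and Zfp52 (5508 bp). Zfp710 had 90.4% of its peak inside P2 H3K27ac and none at P17. These genes lie in clusters of similar copies, and how reads with several matches were treated is not given in the sources used here. Some of the members lay side by side in unbroken series, described below. Their peaks may not be independent, so the intervals above for this list may be too narrow.

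**Figure D3:**
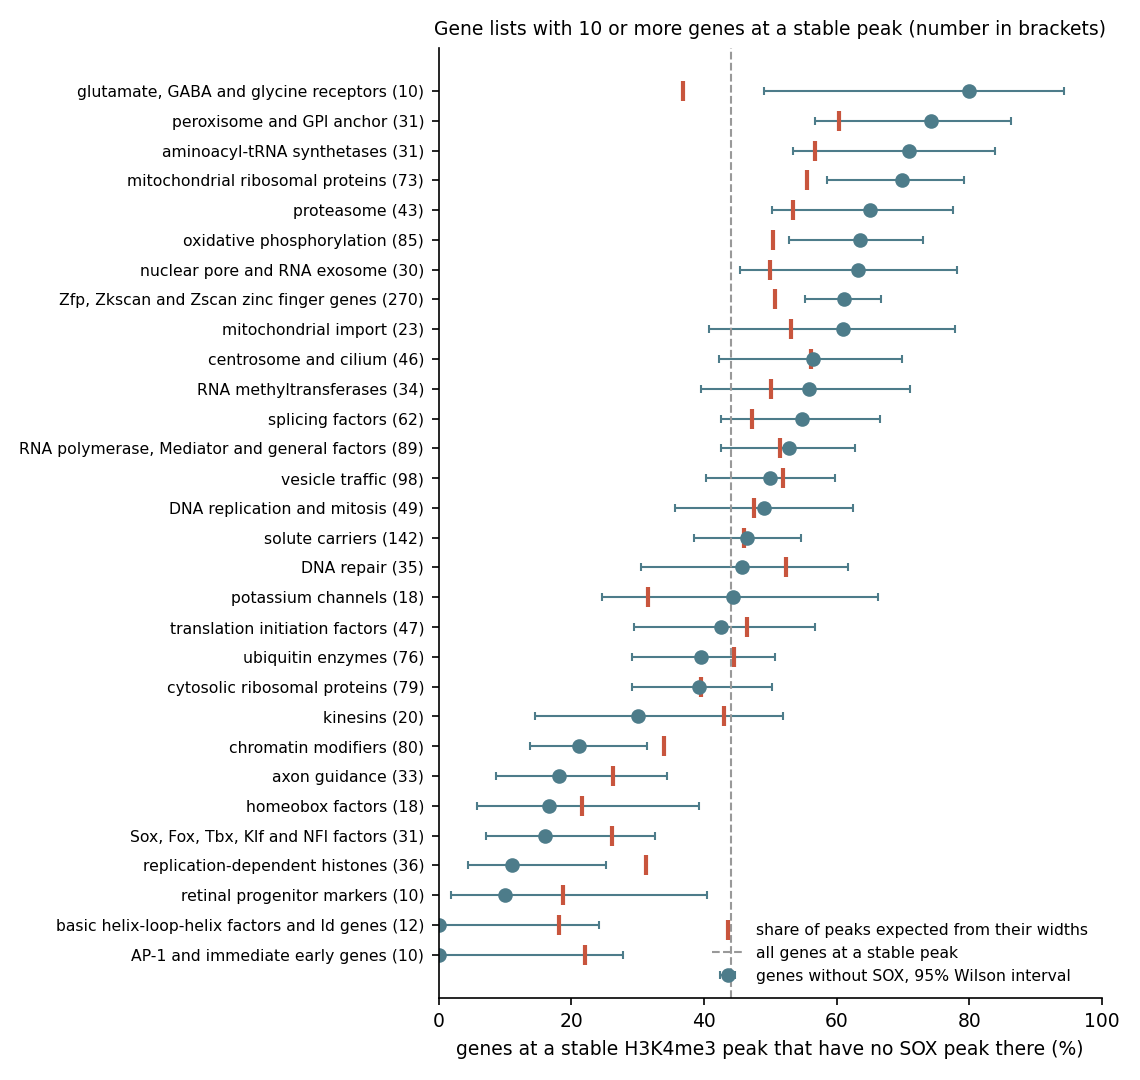
Share of genes at a stable H3K4me3 peak that had no SOX peak there (%, circles, 95% Wilson intervals) for lists with at least 10 such genes, whose number is in brackets. The dashed line is the 44.1% of all genes and vertical ticks give the share of the list's peaks expected from their widths; mitochondrial, proteasome and zinc finger lists lie right of the line, and developmental factors and histones left of it.

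Developmental regulators were rarely members. Homeobox factors had 3 of 18 without SOX (16.7%), namely Six4, Meis3 and Pou6f1, and the Sox, Fox, Tbx, Klf and NFI factors 5 of 31 (16.1%, 95% interval 7.09 to 32.6%), all of them Fox genes (Foxm1, Foxp4, Foxj2, Foxo4 and Foxh1). Basic helix-loop-helix factors and Id genes had 0 of 12 (up to 24.2%) and AP-1 and immediate early genes 0 of 10 (up to 27.8%). Axon guidance genes had 6 of 33 (18.2%), among them Efnb1, Ntng1, Epha7 and Sema7a. Chromatin modifiers had 17 of 80 (21.2%, 13.7 to 31.4%). Of their peaks 22.1% (14.6 to 31.9%) were without SOX, below the 34.0% from widths. Their members included Arid5b, Smarce1, Kmt5a and Kdm5c. Replication-dependent histone genes had 4 of 36 (11.1%, 4.41 to 25.3%), in 2 peaks at H2ac6 with H2bc4 and at H2bc9 with H3c7, while 2 of 16 histone peaks (12.5%, 3.5 to 36.0%) were without SOX. Histone genes share peaks, so the interval over genes is too narrow, and that over peaks held the 31.2% from widths. For the homeobox, Sox to NFI, helix-loop-helix, AP-1 and axon guidance lists the interval over peaks also held that value (21.6, 26.2, 18.2, 22.1 and 26.3%), so their low shares did not differ beyond counting error from those of peaks as wide. Kinesins had 6 of 20 (30.0%, 14.5 to 51.9%).

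Receptor and channel genes with a stable peak were few. Of 51 glutamate, GABA and glycine receptor genes, 10 had a stable peak and 8 of these no SOX (80.0%, 95% interval 49.0 to 94.3%), against 36.8% from widths. With only the wider 50% of SOX peaks their excess over all genes went from 35.9 to 11.2 points. Gria2 and Gria4, AMPA receptor subunits, had P2 widths of 4304 and 4309 bp and P17 widths of 6484 and 6481 bp. Grm7, a metabotropic glutamate receptor, had 6799 and 4590 bp. Potassium channels had 8 of 18 (44.4%), including Kcna5, Kcnd3, Kcnb2 and Kcnc2. Of the smallest lists, collagens, laminins and integrins had 5 of 8, Wnt ligands and Frizzled receptors 2 of 7 (Fzd3 and Wnt5a), and clustered protocadherins 1 of 1 (Pcdhgc3). None of 1465 olfactory and vomeronasal receptor genes had a stable peak.

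Markers of retinal cell types gave 7 members. Müller glia markers had 2 of 8 without SOX, Gpr37 and Prdx6, an antioxidant enzyme. Gpr37, a receptor known from glia, had 8213 bp at P2 and 10136 bp at P17, with 91.1% and 77.9% of the P2 peak inside H3K27ac. Prdx6 had 5017 and 3397 bp and no P17 H3K27ac. The single members of the other lists were Fgfr1 (1 of 10 progenitor markers), Pdc (1 of 8 rod), Gucy2e (1 of 3 cone), Tfap2b (1 of 9 amacrine and horizontal) and Stmn2 (1 of 3 ganglion cell). Fgfr1 and Stmn2, a neuronal microtubule regulator, had no P17 H3K27ac, while the peaks of Pdc and Gucy2e, a photoreceptor guanylate cyclase, lay wholly inside it. Bipolar markers (2 stable) and microglia and endothelial markers (1 stable) gave none. The background was 44.1% of all genes. Peak widths alone gave 15.6% for Müller glia, 18.7% for progenitor, 21.7% for rod and 17.3% for amacrine and horizontal markers. The interval over peaks of each of these lists held that value, so their shares did not differ from it beyond counting error. In whole retina a lost or weak peak cannot be told apart from fewer cells of the type that carries it.

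The X chromosome held more members than its share of peaks. Of members 178 (4.70%, 95% interval 4.07 to 5.42%) lay on X, against 34 of SOX-bound stable peaks (0.762%) and 2.77% of all P2 H3K4me3 peaks. The difference was 3.94 percentage points (3.24 to 4.69). Put the other way, 84.0% of the 212 stable X peaks were without SOX (78.4 to 88.3%), while the autosomes ranged from 37.8% on chromosome 12 to 51.6% on chromosome 2. The X share stood apart in every width class: 97.0% against 72.5% of autosomal peaks in the narrowest and 61.5% against 14.8% in the widest, where X had 26 peaks. A high X share was not particular to stable peaks. Of the 588 P2 H3K4me3 peaks with neither SOX nor P17 H3K4me3, 37 lay on X (6.29%, 4.60 to 8.55%). None of the 301 peaks with SOX at P17 only lay on X, but the 95% interval of 0 to 1.26% held the 0.762% of all SOX-bound stable peaks. X members were 2966 bp wide at the median, and 78.1% had P17 H3K27ac, against 81.4 to 91.6% on the autosomes. These acetylation shares have no intervals, so the gap between X and the lowest autosomes may be counting error. The sex of the animals and the number of X copies in the libraries were not known, and their part in the result was not tested.

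**Figure D4:**
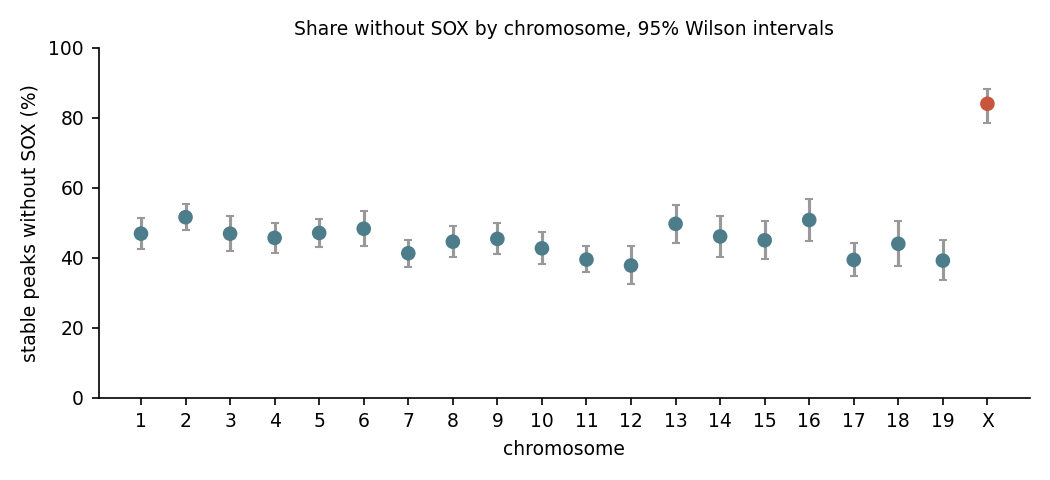
Share of stable H3K4me3 peaks without SOX (%) on each chromosome, with 95% Wilson intervals. The X chromosome is at 84.0%, and the autosomes lie between 37.8% and 51.6%.

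The widest X members lay at Pcdh19, at Bcorl1 (7776 bp), at a peak of 7347 bp with no protein-coding start, and at Flna (6867 bp), which encodes an actin crosslinker. Flna had 73.8% of its P2 peak inside P2 H3K27ac and 33.7% inside P17 H3K27ac. The longest series of neighbouring stable peaks that were all members lay on X, with 47 peaks over 37.6 Mb, and the next also on X, with 19 peaks over 21.4 Mb. Among the genes of the longest, picked here after their values were seen, were Ogt, which encodes O-GlcNAc transferase, the glycolytic gene Pgk1 and the chromatin remodeller Atrx. Ogt had 4890 bp at P2 and 5186 bp at P17, Pgk1 4700 and 7470 bp, and Atrx 2706 and 4289 bp. On the autosomes the longest series had 15 peaks over 1.94 Mb of chromosome 13 and 14 peaks over 2.69 Mb of chromosome 17, both made up mostly of Zfp genes.

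Members held fewer gene starts each, with both ends counted for genes that have no listed start site. A single protein-coding start lay within 1 kb of 82.4% of members and 76.1% of SOX-bound peaks, and 2 or more lay at 12.3% and 17.9%, a difference of -5.59 points (95% interval -7.12 to -4.05), or -2.69 points with only the wider 50% of SOX peaks. The share with 2 or more was lowest in the narrowest width class of both sets. In that class 7.18% of members and 8.24% of SOX-bound peaks had 2 or more, and in the widest 16.7% and 21.0%. Among members the rise was not steady, as the middle class already had 16.8% and the next wider class 14.7%.

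Promoter sequences were compared over the RefSeq windows of 300 bases around the start, which were matched for 3200 genes without SOX and 4104 genes with SOX. Both sets were rich in CpG. The observed to expected CpG ratio had a median of 0.813 (quartiles 0.674 and 0.938) without SOX and 0.847 (0.707 and 0.962) with SOX, against 0.573 in all 17274 protein-coding promoters of the table. GC content was 60.3% at the median without SOX (quartiles 54.7 and 66.3%) and 65.0% with SOX (59.0 and 70.7%). A ratio of at least 0.6 was found in 83.2% and 87.3% of promoters, against 48.2% of all.

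The ETS letters CCGGAAG were more frequent without SOX. They occurred in 27.4% of promoters without SOX (95% interval 25.9 to 28.9%), 17.5% with SOX (16.4 to 18.7%) and 12% of all promoters. The difference was 9.88 points (7.95 to 11.8). ETS factors such as GABPA are known to bind promoters of housekeeping and mitochondrial genes. In 3 equal groups of promoters by GC content, a setting chosen after seeing the data, the difference was at least 8.18 points in each, and every interval lay above 0. Of 23 gene lists, 17 had the higher share without SOX, 5 the lower and 1 held no match. Some of the 17 were near ties or small counts, such as vesicle traffic (24.3% and 23.7%) and DNA repair (2 of 11 and 2 of 15). In the list with the most genes, 43 of 147 zinc finger promoters without SOX held the letters (29.3%) and 10 of 78 with SOX (12.8%). Among RNA polymerase, Mediator and general factors the counts were 17 of 37 and 7 of 41. Mitochondrial ribosomal proteins had 37.0% and 38.9%, and cytosolic ribosomal proteins the opposite order, 29.2% and 47.1%.

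**Figure D5:**
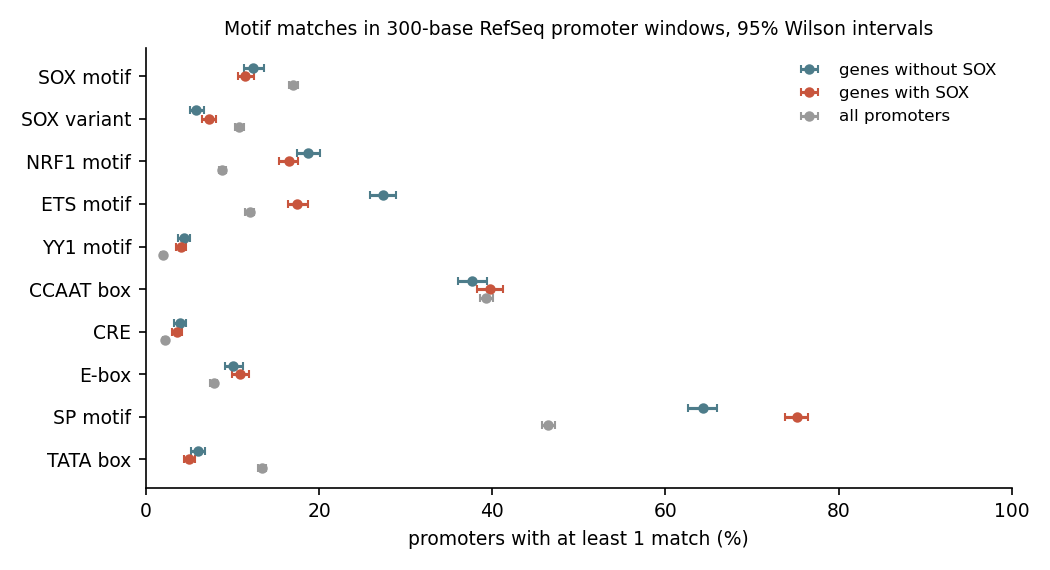
Share of promoters with at least 1 match to each motif (%), for genes without SOX, genes with SOX and all promoters of the table, with 95% Wilson intervals. ETS letters are at 27.4% without SOX and 17.5% with SOX, SP letters at 64.3% and 75.2%.

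The SP letters GGGCGG had the reverse order, in 64.3% of promoters without SOX and 75.2% with SOX (difference -10.9 points, 95% interval -13.0 to -8.74), and 46.4% of all. Within the group of lowest GC they did not differ beyond counting error (0.539 points, -3.51 to 4.58), and in the others the differences were -5.56 and -3.60 points. NRF1 letters were at 18.7% and 16.5% (2.22 points, 0.460 to 3.99), against 8.85% of all. From low to high GC their differences were 3.18, 5.73 and 1.56 points, the last with an interval that included 0 (-1.82 to 5.11). The SOX letters ACAAAG were at 12.4% and 11.5% (0.881 points, -0.613 to 2.40) and 17% of all, and ACAATG at 5.81% and 7.24% (-1.42 points, -2.55 to -0.277) and 10.8% of all. For AAGATGGCG (4.38% and 4.04%, all 1.94%), CCAAT (37.7% and 39.7%, all 39.3%), TGACGTCA (3.91% and 3.56%, all 2.25%), CACGTG (10.1% and 10.9%, all 7.84%) and TATAAA (5.97% and 5%, all 13.4%) the interval of the difference included 0. These are counts of letters in a short window; matches of different motifs may overlap, and SOX peaks are far wider than the windows.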

How the data were processed

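The deposited files used here are 8 peak lists in BED format, 1 each for H3K4me3, H3K27ac, SOX8 and SOX9 at P2 and at P17, which the authors made from CUT&RUN libraries. Per the submitters' processing notes, Bowtie2, SEACR and the build GRCm38 were used. Versions, the threshold, the use of IgG and how libraries were combined are not given in the sources used here. The score column of the deposited lists is 0 for every peak. The 4 IgG libraries were not analysed here. Positions are printed counted from 1.

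Overlaps, widths, shares and intervals were computed in Python 3.11.15 with numpy 2.4.6, and the overlap code was checked on simulated data. Genes came from RefSeq tables of GRCm38.p6: 17274 protein-coding genes were placed by their start sites, and 4357 genes with no start in the table by both gene ends. A gene belonged to a peak within 1 kb, and to the SOX-bound set if any of its stable peaks was SOX-bound (79 genes had both kinds). Widths were split into 5 classes of equal size. Named genes are the 10 widest members with a gene start, up to 4 of the widest in each list, the 5 widest on X, the 5 on each side of the rule's boundary, the 5 widest without H3K27ac at each age, the 5 at each end of the width ratio, and members among cell type markers; others named are examples of a count. A few items that this rule takes are not reported here. The members and lists were chosen with earlier results of these data known, and some list definitions were corrected for stray symbols after the files were read. Alternatives changed the overlap, distances, lists, widths and chromosomes.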

Additional observations from a re-analysis of the deposited data

How the results depend on the processing

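Of 53 alternative values for the number of members and for the differences in H3K27ac, width, X share, gene starts and CpG ratio, 44 stayed within the main 95% interval (for medians and counts, within 1.5 times) and 9 moved; none changed sign. With only the wider 50% of each SOX list, members numbered 5724, and the differences were -1.09 points for P2 H3K27ac, -5.17 points for P17 H3K27ac, 3.02 points for X, 2.11 points for a gene start, -2.69 points for 2 or more gene starts, and -0.0173 in CpG ratio. The P2 H3K27ac difference was -24.4 points with the shortened P2 list and -11.5 points with 50% coverage.

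For the 30 gene lists with at least 10 genes, the share over that of all genes kept its sign in 86 of 90 alternatives, but in 20 of these it moved by over 1.5 times. It changed to 0.627 and 7.81 points for translation initiation factors (start within 5 kb, and wider SOX peaks), and with wider SOX peaks to 3.37 points for cytosolic ribosomal proteins and -7.68 points for potassium channels. The cause was not tested.

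No paired analysis was possible because the lists hold no values per replicate, so no replicate was left out. Without heights or depth, a SOX peak under the authors' threshold cannot be told apart from none.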

Other observations

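Some members lay side by side under a single broad P17 H3K4me3 peak. On chromosome 19, members of 2307 bp at Ints5 and 3929 bp at Ganab and Ints5 both met 1 P17 peak of 23224 bp, and the member at B3gat3 went from 2550 to 14680 bp. The member at Ccdc137 and Oxld1 went from 2777 to 16271 bp and that at Sec14l2 from 2939 to 12274 bp. The nearest SOX peak to each of these 5 members, picked for their width ratio, was a P17 SOX9 peak, between 126 and 9932 bp away. A P17 SOX9 peak was also the nearest for 923 of all 3786 members, and neighbouring members can share 1 SOX peak. The rule judged SOX overlap on the P2 peak. Whether the broader P17 peaks here meet SOX9 was not tested. At the other extreme, Plagl1 went from 7538 to 2719 bp and had no P17 H3K27ac, and a peak of 11293 bp on chromosome 13 with no protein-coding start, the widest member of all, met a P17 peak of 3463 bp.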
